A study of Mus musculus with 6 samples.

Results

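The matrix metalloproteases (MMPs), the ADAM and ADAMTS proteases, their tissue inhibitors (TIMPs) and several proteases that activate or accompany them were followed in E0771 mouse breast carcinoma cells with lowered lamin A/C. The list held 42 genes and was selected on measured values, the earlier results of the comparison described here, so it gets no test of its own and its counts are descriptions. A gene was kept where its symbol stood in the deposited table of counts, which left 26 of the 42 genes, out of 10520 genes in the table. The table holds only genes with at least 6 unique molecular identifiers (UMIs, tags that mark single captured RNA molecules) in some library. Just inside that limit were Mmp3 and Spint1, each with a highest count of 7 UMIs. The 16 genes of the list that are not in the table were Mmp10, Mmp13, Mmp15, Mmp17, Mmp19, Mmp23, Mmp24, Timp3, Reck, Adam12, Adamts5, Adamts9, Adamts12, Adamts15, Spint2 and Ctsk, and they were not analysed here.

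E0771 is a breast adenocarcinoma line of C57BL/6 mice. All cells were transduced with lentivirus and selected with puromycin, and the groups differed in the vector, which was either the shControl vector, listed in the study's reagents as an empty vector, or an shLmna vector directed against the transcript of lamin A and lamin C. Each group had 3 MARS-seq libraries, which read the 3' ends of polyadenylated RNA. The knockdown libraries carry the genotype shLmna and the title shRNA4, and which of the study's constructs that title stands for is not given in the sources used here. The cells were transduced populations grown in culture, with 1 knockdown construct, and nothing says that the 3 libraries of a group came from separate cultures, so the p-values measure only the spread between these libraries, which may be technical.

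The libraries held 1846208 to 3242051 UMIs. No pair of replicates looked like the same library deposited again (chi-square of 5.37 to 8.5 per degree of freedom), and all 6 were used. The shControl libraries stood at plate positions 13 to 15 and the shLmna libraries at positions 16 to 18, and the effects of position and group cannot be told apart. Lmna itself, at chr3:88480147-88509956, fell in shLmna from 2169 ± 156 to 946 ± 15.7 normalized counts (SD, n = 3), a log2 fold change of -1.20 with a standard error of 0.13 (adjusted p = 3.5e-05, edgeR's quasi-likelihood test). A normalized count is a UMI count scaled to the mean effective library size. Of the carcinoma markers, 4 of 7 were in the table, with Krt8 at 686 ± 68.2 normalized counts in shControl and 722 ± 38.3 in shLmna, while Cdh1, Krt19 and Cldn7 were not in it.

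MMPs are zinc proteases that cut collagens, laminin and other proteins of the extracellular matrix. They are made as inactive proenzymes, and TIMPs block their active site. ADAMs are membrane proteases that release growth factors, adhesion molecules and receptors from the cell surface, and ADAMTS proteases are secreted and cut proteoglycans. In carcinomas much of the MMP supply comes from stromal cells, and the cells studied here were grown without stroma.

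Of the 26 genes in the table, 18 passed the filter on low counts and were tested, and each of these 18 was above the filter's level of 3.78 CPM (UMI counts scaled to a common library total) in all 6 libraries, in either group. After adjustment over all 8969 genes tested, 6 of the 18 were higher in shLmna (Timp2, Htra1, Mmp2, Mmp11, Adam9 and Capn1), against a background of 7.96% of all tested genes called higher. A further 2 were lower (St14 and Adamts1), against a background of 5.78% called lower. By the study's criteria for differential expression, a mean normalized count above 5, a log2 fold change beyond 1 in either direction and an adjusted p below 0.05, 6 of the 18 qualified, all of the called genes but Adam9 and Capn1, against a background of 5.71%. Since the list was drawn up with this contrast known, nothing is read from these shares. The other 10 tested genes were not called. Over the 18 tested genes the median log2 fold change was 0.18, beside 0.0033 over all tested genes, with 11 values above 0 and 7 below. In 10 of the 18 the normalized counts of the 2 groups did not overlap, these being the 8 called genes, Mmp14 and Adam10, against a background of 32.5% of all tested genes.

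**Figure D1:**
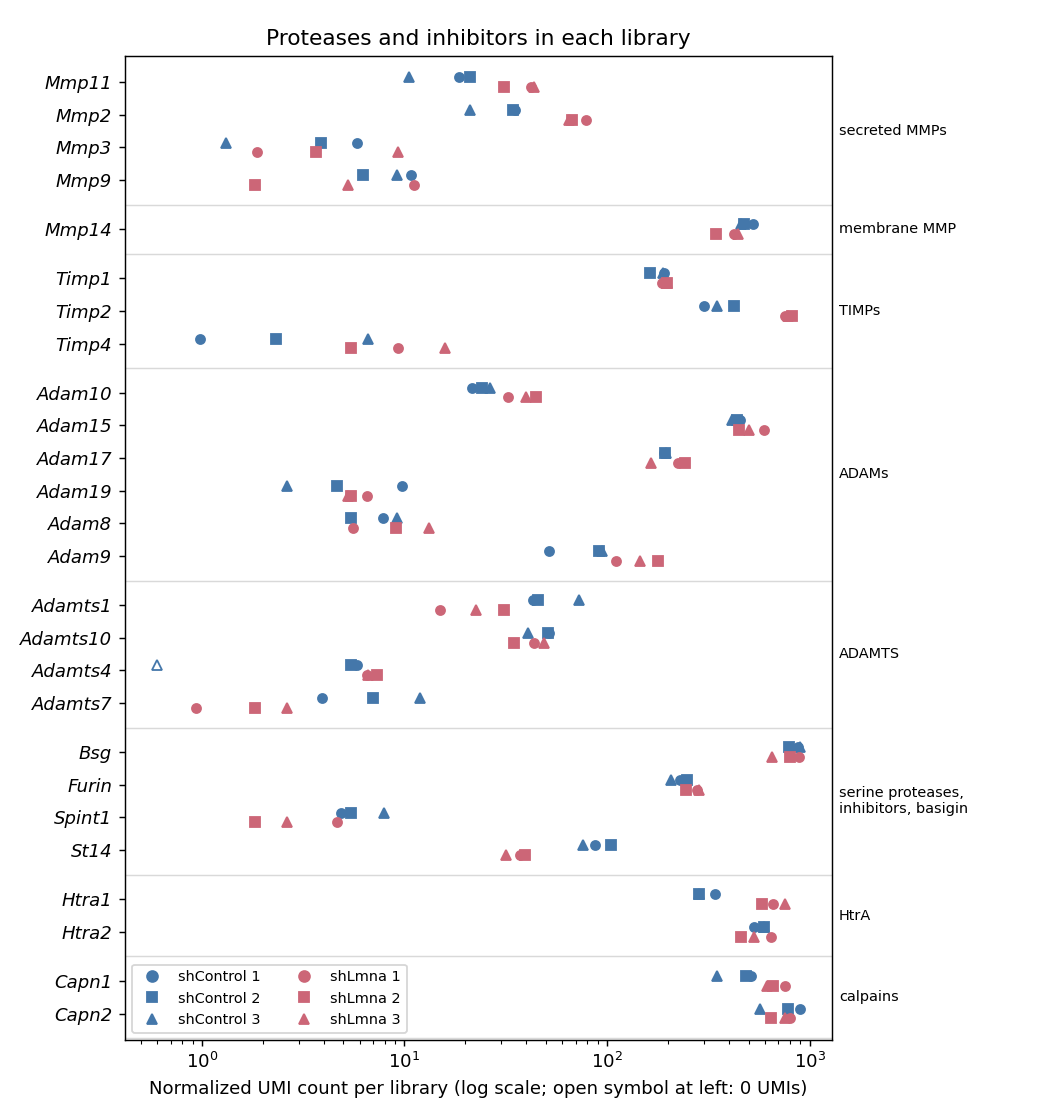
Normalized UMI counts on a log axis for the 26 protease and inhibitor genes in the table, grouped by role; each symbol is 1 library, blue for shControl and red for shLmna, its shape gives the replicate number, and the open symbol stands for 0 UMIs. Timp2 and Htra1 lie at 285 to 423 in shControl and at 584 to 823 in shLmna, St14 and Adamts1 lie lower in shLmna, and Mmp14, Bsg and Capn2 are among the most abundant genes with little separation.

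The RefSeq promoters of 4 of the 6 differentially expressed genes are shown, an inhibitor, a serine protease and a metalloprotease that rose and an ADAMTS protease that fell. For Mmp2 and St14 the RefSeq table held no promoter. Each promoter shown runs from 250 bases before to 50 bases after the transcription start, 5′ to 3′ on the gene's strand, in build GRCm38.p6. The Timp2 promoter lies at chr11:118355362-118355661 on the minus strand, that of Htra1 at chr7:130935953-130936252 on the plus strand, that of Mmp11 at chr10:75932453-75932752 on the minus strand and that of Adamts1 at chr16:85803064-85803363 on the minus strand. Capitals mark matches to the GC box GGGCGG on either strand, which reads CCGCCC when it lies on the other strand, and to the TATA box letters TATAAA.
Timp2: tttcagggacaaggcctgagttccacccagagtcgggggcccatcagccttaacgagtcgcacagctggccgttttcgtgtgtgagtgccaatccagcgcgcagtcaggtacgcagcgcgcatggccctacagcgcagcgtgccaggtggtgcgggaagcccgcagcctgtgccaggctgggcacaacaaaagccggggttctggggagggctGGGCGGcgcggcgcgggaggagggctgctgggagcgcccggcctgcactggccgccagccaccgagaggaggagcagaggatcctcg
Htra1: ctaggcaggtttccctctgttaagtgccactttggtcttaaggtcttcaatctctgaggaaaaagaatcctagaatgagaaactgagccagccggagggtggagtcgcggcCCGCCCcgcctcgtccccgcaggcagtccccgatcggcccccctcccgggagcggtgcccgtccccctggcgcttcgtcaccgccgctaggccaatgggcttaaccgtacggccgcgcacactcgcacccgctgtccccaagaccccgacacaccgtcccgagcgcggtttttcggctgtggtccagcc
Mmp11: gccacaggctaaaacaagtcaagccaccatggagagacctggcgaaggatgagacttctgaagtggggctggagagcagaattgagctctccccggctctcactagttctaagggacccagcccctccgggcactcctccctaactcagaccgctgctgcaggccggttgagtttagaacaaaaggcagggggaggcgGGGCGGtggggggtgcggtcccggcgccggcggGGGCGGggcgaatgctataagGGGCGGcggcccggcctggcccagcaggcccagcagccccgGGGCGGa
Adamts1: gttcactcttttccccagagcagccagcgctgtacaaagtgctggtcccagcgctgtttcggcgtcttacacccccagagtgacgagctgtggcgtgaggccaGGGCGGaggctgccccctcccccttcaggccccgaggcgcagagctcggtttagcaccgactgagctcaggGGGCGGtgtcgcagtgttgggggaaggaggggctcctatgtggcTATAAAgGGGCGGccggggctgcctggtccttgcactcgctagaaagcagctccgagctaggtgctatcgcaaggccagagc
The Timp2 promoter holds 1 GC box and the Htra1 promoter 1, read on the other strand. The Mmp11 promoter holds 4, and the Adamts1 promoter holds 3 together with a TATA match that begins 32 bases before the start. In these 4 windows there was no match to the AP-1 motif TGANTCA or to the ETS motif AGGAAG. The RefSeq table gave 21 promoters for 17 of the 26 genes. GC boxes were in 15 of these 21 and in 35.7% of all 32851 promoters in the table, and TATAAA was in 3 of 21 and in 13.6% of all. The AP-1 motif was in 4 of 21, those of Mmp3, Adam19, Spint1 and Capn2, and in 7.81% of all, and the ETS motif AGGAAG was in 9 of 21 and in 35.4% of all. None of these motifs contains another. A match is a description of the window, not a bound site.

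Among the secreted MMPs, Mmp2 and Mmp11 rose in shLmna. Mmp2 encodes gelatinase A, which cuts type IV collagen and denatured collagen, and lies at chr8:92827291-92853420. In the order of the replicate numbers, which is kept below, the shControl libraries held 36, 44 and 16 UMIs of it and the shLmna libraries 85, 74 and 49, or 35.1, 34.2 and 21.1 against 79.1, 67.5 and 64.7 normalized counts. Each shLmna library was above each shControl library. The log2 fold change was 1.20 with a standard error of 0.24, a 2.29-fold rise with a 95% interval of 1.62 to 3.24 (adjusted p = 0.00396, edgeR's quasi-likelihood test), and with any 1 library left out the adjusted p was at most 0.0235.

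Mmp11 encodes stromelysin-3, which is cut by furin inside the secretory pathway and so leaves the cell already active, and lies at chr10:75923222-75936496. Its counts were low, with 19, 27 and 8 UMIs in shControl and 45, 34 and 33 in shLmna. The normalized counts were 18.5, 21.0 and 10.5 in shControl and 41.9, 31.0 and 43.6 in shLmna, without overlap. Its log2 fold change was 1.15 with a standard error of 0.30 (adjusted p = 0.0185, edgeR's quasi-likelihood test). The call was lost without shLmna replicate 1 (adjusted p = 0.0726) or shLmna replicate 3 (adjusted p = 0.0769), at log2 fold changes of 1.07 and 1.08.

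The other secreted MMPs in the table, the stromelysin Mmp3 and the gelatinase Mmp9, had too few UMIs for the test. Mmp3 had 6, 5 and 1 UMIs in shControl and 2, 4 and 7 in shLmna. Mmp9 had 11, 8 and 7 UMIs in shControl and 12, 2 and 4 in shLmna. The groups overlapped in both genes, and the shLmna to shControl ratios of the summed counts, scaled by effective library size, were 1.14 for Mmp3 with a 95% counting interval of 0.478 to 2.73, and 0.727 for Mmp9 with 0.375 to 1.38. These intervals, like those given for other untested genes, cover counting error only, and both include a ratio of 1.

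Mmp14, which encodes the membrane-anchored MT1-MMP that activates the Mmp2 proenzyme at the cell surface, was the most abundant MMP and did not pass the test. It lies at chr14:54431612-54445364 and had 522, 475 and 460 normalized counts in shControl and 425, 343 and 443 in shLmna. The groups did not overlap, with shLmna below shControl, but the log2 fold change of -0.27 had a 95% interval of -0.58 to 0.04 (adjusted p = 0.243, edgeR's quasi-likelihood test). Because Mmp14 makes up most of the family's counts, the sum over the 5 MMPs in the table was 592, 541 and 502 normalized counts in shControl and 559, 447 and 565 in shLmna, overlapping, while the sum over the secreted ones was 70.1, 65.2 and 42.2 against 134, 104 and 123, without overlap. Levels are compared between genes here because at most the last 1000 bases of each gene and a short stretch downstream were counted.

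Of the inhibitors, Timp2 rose and Timp1 did not pass the test. Timp2 encodes an inhibitor of secreted and membrane MMPs that also takes part in the activation of the Mmp2 proenzyme by MT1-MMP, and lies at chr11:118301069-118355740. It had 309, 544 and 265 UMIs in shControl and 815, 902 and 594 in shLmna. In normalized counts these were 301, 423 and 349 against 759, 823 and 785, so that the lowest shLmna library was well above the highest shControl library. The log2 fold change was 1.14 with a standard error of 0.15, a 2.20-fold rise with a 95% interval of 1.76 to 2.75 (adjusted p = 0.000195, edgeR's quasi-likelihood test), and with any 1 library left out the adjusted p was at most 0.00313.

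Timp1, a secreted inhibitor with weak action on membrane-type MMPs, lies at chrX:20870166-20874735 and had 191, 162 and 188 normalized counts in shControl and 187, 198 and 197 in shLmna. The groups overlapped, with a log2 fold change of 0.11 and a 95% interval of -0.21 to 0.43 (adjusted p = 0.693, edgeR's quasi-likelihood test). Its transcript of 883 bases is shorter than the counted window, so its level is not on the same footing per length as the others. Timp4 had 1, 3 and 5 UMIs in shControl and 10, 6 and 12 in shLmna, under the filter, with a ratio of 3.27 and a counting interval of 1.5 to 7.87. Without the filter its adjusted p was 0.124 in edgeR's quasi-likelihood test, so a rise was not called.

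Summed over the 3 TIMP genes in the table, the normalized counts were 493, 587 and 544 in shControl and 955, 1026 and 997 in shLmna. Setting inhibitor against protease, a comparison chosen after the values were seen and given without a test, the ratio of Timp2 to Mmp14 normalized counts was 0.576, 0.889 and 0.759 in shControl and 1.79, 2.4 and 1.77 in shLmna. The ratio did not overlap between the groups. The ratio of Timp2 to Mmp2 was 8.58, 12.4 and 16.6 in shControl and 9.59, 12.2 and 12.1 in shLmna, within the range of the controls. Timp1 stood at 0.634, 0.384 and 0.540 times the Timp2 level in shControl and at 0.247, 0.241 and 0.251 in shLmna.

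Among the ADAMs, Adam9 was called higher, and the call was lost after a correction for GC content. Adam9, a membrane protease known for shedding growth factor precursors, lies at chr8:24949611-25016927. It had 53, 117 and 72 UMIs in shControl and 119, 195 and 110 in shLmna, or 51.6, 90.9 and 94.9 against 111, 178 and 145 normalized counts. The groups did not overlap, but the gap between the highest shControl and the lowest shLmna library was small beside the spread within groups. The log2 fold change was 0.87 with a standard error of 0.24 (adjusted p = 0.0234, edgeR's quasi-likelihood test). It was 0.25 after a correction for GC content (adjusted p = 0.375). Leaving out shControl replicate 1 or 2 or shLmna replicate 2 or 3 also ended the call, with adjusted p of 0.0957, 0.0716, 0.106 and 0.0901. The counted end of Adam9 has a GC content of 32.5%, the lowest of the 26 genes.

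Adam10, the main sheddase of Notch receptors and of cadherins, lies at chr9:70678997-70780229 and was the other ADAM with separated groups, at 21.4, 24.1 and 26.4 normalized counts in shControl and 32.6, 44.7 and 39.6 in shLmna. Its log2 fold change was 0.71 with a 95% interval of 0.16 to 1.25 and did not pass the adjustment (adjusted p = 0.0804, edgeR's quasi-likelihood test), and after the GC correction it was 0.22 (adjusted p = 0.563). Its end has a GC content of 34.7%.

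Adam15, an ADAM whose ectodomain carries an integrin-binding motif, was the most abundant member of the group and lies at chr3:89338542-89349996. It had 463, 562 and 313 UMIs in shControl and 641, 490 and 380 in shLmna, or 451, 437 and 413 against 597, 447 and 502 normalized counts. The groups overlapped through shLmna replicate 2, with a log2 fold change of 0.25 (adjusted p = 0.287, edgeR's quasi-likelihood test). Adam17, the sheddase of tumor necrosis factor and of several ligands of the epidermal growth factor receptor, lies at chr12:21323509-21373632 and had 192, 194 and 196 normalized counts in shControl and 223, 242 and 165 in shLmna. Its log2 fold change was 0.12 with a 95% interval of -0.23 to 0.47 (adjusted p = 0.678, edgeR's quasi-likelihood test). The end of Adam17 overlaps Iah1 on the opposite strand, and since strand use in the counting is not given in the sources used here, reads of such pairs may not have been told apart. Adam8, with 8, 7 and 7 UMIs in shControl and 6, 10 and 10 in shLmna, and Adam19, with 10, 6 and 2 against 7, 6 and 4, were under the filter, and both overlap another annotated gene on the opposite strand.

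The ADAMTS proteases moved the other way where a call was made. Adamts1, which cuts the proteoglycans versican and aggrecan, fell in shLmna and lies at chr16:85793827-85803113. It had 44, 59 and 55 UMIs in shControl and 16, 34 and 17 in shLmna. The normalized counts were 42.9, 45.8 and 72.5 in shControl and 14.9, 31.0 and 22.5 in shLmna, with shControl replicate 3 the highest and no overlap. Its log2 fold change was -1.20 with a standard error of 0.30 (adjusted p = 0.0165, edgeR's quasi-likelihood test), and -1.65 after the GC correction (adjusted p = 0.000438), a fall that the correction made larger. The call was lost without shControl replicate 2 (adjusted p = 0.0522), shLmna replicate 1 (0.0758) or shLmna replicate 3 (0.0704).

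Adamts10, known for its tie to fibrillin microfibrils, had 51.6, 51.3 and 40.9 normalized counts in shControl and 43.8, 34.7 and 48.9 in shLmna, with a log2 fold change of -0.20 (adjusted p = 0.607, edgeR's quasi-likelihood test) at chr17:33524204-33553782. Adamts7, which cuts cartilage oligomeric matrix protein, had 4, 9 and 9 UMIs in shControl and 1, 2 and 2 in shLmna and was not tested. Its groups did not overlap and its ratio was 0.239 with a counting interval of 0.0706 to 0.646, while the adjusted p without the filter was 0.0834 in edgeR's quasi-likelihood test. Adamts4, also not tested, had 6, 7 and 0 UMIs in shControl and 7, 8 and 5 in shLmna. Its UMI counts overlapped, and its normalized counts, with shLmna above shControl, were separated by the scaling alone. Its ratio was 1.61 with a counting interval of 0.764 to 3.53. Summed over the 4 ADAMTS genes in the table, the normalized counts were 104, 109.5 and 125 in shControl and 66.1, 74.8 and 80.6 in shLmna.

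**Figure D2:**
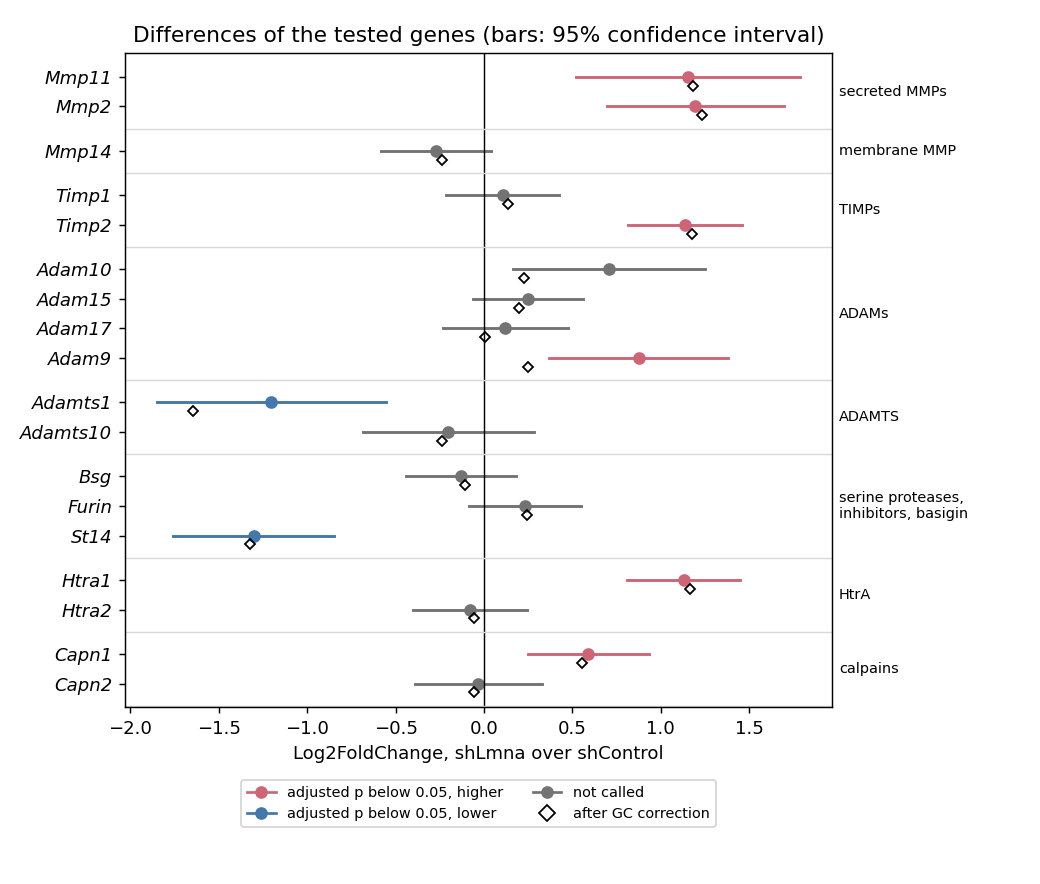
Log2FoldChange of shLmna over shControl with 95% intervals for the 18 tested genes, ordered by role, from the fit over all genes; open diamonds are the values after the GC correction. Timp2, Htra1, Mmp2 and Mmp11 lie near 1.1 to 1.2, St14 and Adamts1 near -1.3 and -1.2, and the intervals of the genes that were not called include 0 except that of Adam10.

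Among the proteases and partners that act on the family at the cell surface, St14 fell. St14 encodes matriptase, a transmembrane serine protease of epithelial cells that activates hepatocyte growth factor and urokinase precursors, and lies at chr9:31089402-31131853. It had 89, 134 and 58 UMIs in shControl and 40, 43 and 24 in shLmna, or 86.7, 104 and 76.4 against 37.2, 39.2 and 31.7 normalized counts. Every shLmna library was below every shControl library, with the shLmna values close together. The log2 fold change was -1.30 with a standard error of 0.21, a fold of 0.41 with a 95% interval of 0.30 to 0.56 (adjusted p = 0.00108, edgeR's quasi-likelihood test), and with any 1 library left out the adjusted p was at most 0.0148. Spint1, the membrane inhibitor of matriptase, had 5, 7 and 6 UMIs in shControl and 5, 2 and 2 in shLmna, with a ratio of 0.525 and a counting interval of 0.208 to 1.23. Both groups had a library with 5 UMIs of Spint1, so its normalized counts were separated by the scaling alone, and it was not tested.

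Furin, the proprotein convertase that removes the prodomain of Mmp11, Mmp14 and most ADAMs, lies at chr7:80388585-80405436 and had 229, 249 and 207 normalized counts in shControl and 278, 246 and 284 in shLmna. The groups overlapped, and the log2 fold change of 0.23 did not pass the test (adjusted p = 0.328, edgeR's quasi-likelihood test). Bsg, which encodes basigin, a surface glycoprotein known as an inducer of MMPs in neighbouring fibroblasts, was the most abundant gene of this group at chr10:79704491-79711969. It had 897, 1022 and 678 UMIs in shControl and 954, 877 and 494 in shLmna, or 874, 794 and 894 against 888, 800 and 653 normalized counts. Only shLmna replicate 3 lay below all controls, and the log2 fold change was -0.13 with a 95% interval of -0.44 to 0.18 (adjusted p = 0.612, edgeR's quasi-likelihood test).

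Of the HtrA serine proteases, Htra1 rose and Htra2 did not pass the test. Htra1 is secreted, cuts matrix proteins such as fibronectin and binds growth factors of the TGF-beta family, and lies at chr7:130936111-130985660. It had 350, 368 and 216 UMIs in shControl and 711, 640 and 570 in shLmna. In normalized counts these were 341, 286 and 285 against 662, 584 and 753, with a wide gap between the groups. The log2 fold change was 1.13 with a standard error of 0.15, a 2.19-fold rise with a 95% interval of 1.75 to 2.73 (adjusted p = 0.000196, edgeR's quasi-likelihood test), and with any 1 library left out the adjusted p was at most 0.00619. Htra2, a mitochondrial protease that is released in apoptosis, lies at chr6:83051266-83055273 and had 529, 598 and 592 normalized counts in shControl and 641, 459 and 528 in shLmna. Its log2 fold change was -0.08 with a 95% interval of -0.40 to 0.24 (adjusted p = 0.788, edgeR's quasi-likelihood test), and its end overlaps Loxl3 on the opposite strand.

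Calpains are calcium-dependent cysteine proteases of the cytoplasm that cut proteins of focal adhesions. Capn1, the large subunit of mu-calpain at chr19:5988545-6015897, rose from 511, 483 and 351 normalized counts in shControl to 756, 657 and 617 in shLmna, from 525, 622 and 266 and 812, 720 and 467 UMIs. The log2 fold change was 0.59 with a standard error of 0.16, a fold of 1.51 (adjusted p = 0.0241, edgeR's quasi-likelihood test), and the groups did not overlap. Leaving out any library but shControl replicate 1 ended the call, with adjusted p of 0.0750 without shControl replicate 2, 0.0632 without shControl replicate 3, and 0.105, 0.0522 and 0.0538 without shLmna replicates 1, 2 and 3. Capn2, the large subunit of m-calpain at chr1:182467260-182517608, had 918, 1004 and 432 UMIs in shControl and 862, 706 and 571 in shLmna, or 894, 780 and 569 against 803, 644 and 754 normalized counts. The groups overlapped, with a log2 fold change of -0.03 and a 95% interval of -0.39 to 0.33 (adjusted p = 0.932, edgeR's quasi-likelihood test).

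The trend with GC content of the counted end differed between libraries, and its part in the ADAM and ADAMTS results was not tested. Over all tested genes, the change of log2 CPM per 10 points of GC content was 0.21, 0.081 and -0.073 in the shControl libraries and 0.043, -0.14 and -0.12 in the shLmna libraries, so the groups differed in their trend, with shControl replicate 3 within the shLmna range. When the tested genes were cut into 4 equal bins by GC content, the lowest bin, 27.1 to 41.5%, had a median log2 fold change of 0.14. After the correction this median was -0.11, below the -0.034 over all tested genes. A technical trend with GC content and a real shift of genes with low GC content cannot be told apart here. The corrected values therefore do not settle the calls of such genes. Of the 18 tested genes, 4 lay in the lowest bin, Adam9, Adam10, Adamts1 and Adam17. The other called genes had ends of 46.7 to 58.5% GC and passed the test with the correction, at log2 fold changes of 1.23 for Mmp2, 1.18 for Mmp11, 1.18 for Timp2, 1.16 for Htra1, 0.55 for Capn1 and -1.32 for St14 (edgeR's quasi-likelihood test).

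**Figure D3:**
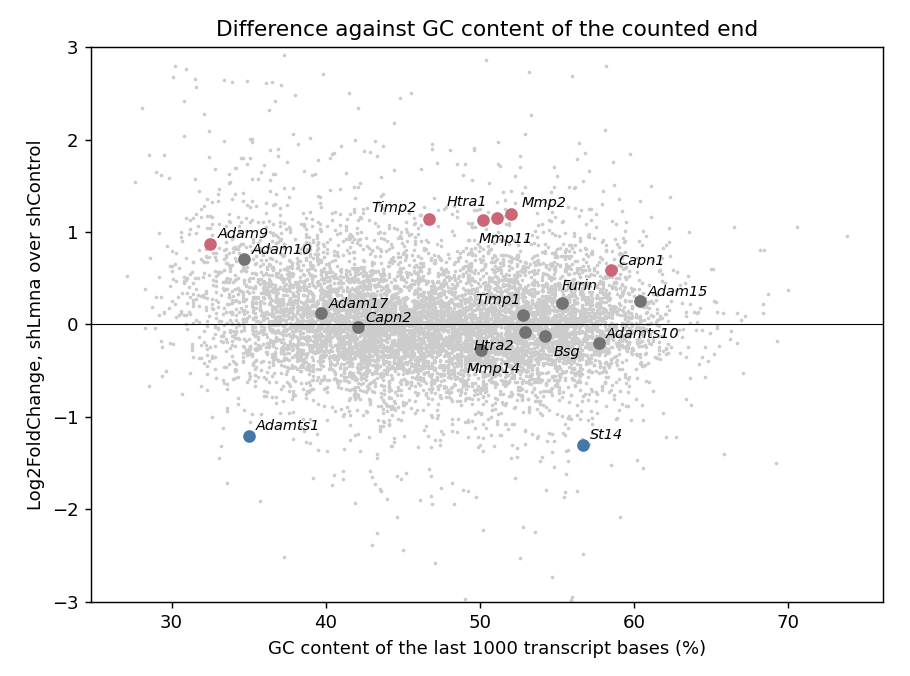
Log2FoldChange of shLmna over shControl against the GC content (percent) of the last 1000 transcript bases; small grey points are all tested genes, with 88 outside the plotted range of -3 to 3, and large points are the tested proteases and inhibitors, red for higher, blue for lower and dark grey for not called. Adam9, Adam10 and Adamts1 lie at the low GC end, while Timp2, Htra1, Mmp2, Mmp11, Capn1 and St14 lie at 46.7 to 58.5%.

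The other genes of the pathway were counted over 7 lists written for substrates, partners and regulators, of which 95 of 184 genes were tested. Of these 95, 20 were higher and 9 lower in shLmna, against the backgrounds of 7.96% and 5.78%, and the median log2 fold change was 0.25. These lists too were drawn up with earlier results of these data known, so nothing is read from their shares, here or below. Among the matrix proteins that MMPs and ADAMTS proteases cut, 11 of 21 tested were higher and 1 lower, with a median of 0.62. Sparc, a collagen-binding matrix protein, rose from 77.5 ± 50.7 to 241 ± 41.5 normalized counts (SD, n = 3), a log2 fold change of 1.69 (adjusted p = 0.00231, edgeR's quasi-likelihood test). Its shControl libraries held 43.8, 52.8 and 136 normalized counts, and without shControl replicate 3 its fold was 4.89 in place of 3.22. Col3a1, a chain of fibrillar type III collagen, had 0 UMIs in every shControl library and 12.97 ± 2.57 normalized counts in shLmna, at least 4.22-fold higher against a floor of 3 UMIs per library. Thbs1, which encodes thrombospondin-1, had 7, 9 and 4 UMIs in shControl and 16, 24 and 17 in shLmna. Its log2 fold change was 1.58 (adjusted p = 0.0116, edgeR's quasi-likelihood test). Every shControl library of Thbs1 and of Col3a1 was under the filter's level of 3.78 CPM. Both genes passed the filter only through shLmna, where they were high, so their rises are descriptions. The 11 genes called higher include both. The gene that fell was Col7a1, the collagen of anchoring fibrils, from 47.1 ± 9.10 to 11.3 ± 2.83 normalized counts (log2 fold change -2.08, adjusted p = 0.000376).

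Of the membrane proteins that ADAMs shed, 4 of 22 tested were higher and 3 lower, with a median log2 fold change of 0.36. The endocytic receptor Lrp1, which also clears MMPs and TIMPs from the cell surface, rose by a log2 fold change of 0.99 (adjusted p = 0.000649, edgeR's quasi-likelihood test), and Aplp2, a relative of the amyloid precursor protein, by 0.96 (adjusted p = 0.000367). Axl, a receptor tyrosine kinase, rose by 0.57 with overlapping groups (adjusted p = 0.0464). The 3 that fell are ligands whose soluble forms ADAMs release. Cxcl16 had a log2 fold change of -1.45 (adjusted p = 0.0066). Hbegf, a ligand of the epidermal growth factor receptor, went from 161 ± 10.2 to 85.5 ± 24.5 normalized counts (log2 fold change -0.94, adjusted p = 0.00605), and Areg, another, from 69.3 ± 6.07 to 38.0 ± 4.09 (log2 fold change -0.86, adjusted p = 0.0139).

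Among the plasminogen system, whose protease plasmin activates several MMPs, 1 of 6 tested was higher and 2 lower. Plaur, the urokinase receptor, fell from 763 ± 45.7 to 416 ± 34.2 normalized counts (log2 fold change -0.88, adjusted p = 0.000708, edgeR's quasi-likelihood test), and Plgrkt, a plasminogen receptor, rose by 0.58 (adjusted p = 0.0431). Of the AP-1 and ETS factors, which are known to drive MMP genes, 0 of 16 were higher and 2 lower, Atf3 (log2 fold change -1.71, adjusted p = 2.9e-05) and Jun (log2 fold change -0.97, adjusted p = 0.000471). By limma-voom 1 factor was called higher, by DESeq2 0, and 4 were higher at an unadjusted p below 0.05 in edgeR's test. The median log2 fold change of this list was 0.03, and -0.19 after the GC correction.

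Of the genes that help ADAMs mature or travel, 1 of 12 tested was higher, Tspan17, a tetraspanin partner of Adam10 (log2 fold change 0.72, adjusted p = 0.0076, edgeR's quasi-likelihood test), and 0 were lower by edgeR, DESeq2 or limma-voom, with 0 lower also at an unadjusted p below 0.05. Among other cysteine proteases and their inhibitors, 1 of 11 was higher and 1 lower. Capn5, a calpain without the penta-EF-hand domain, rose from 8.63 ± 2.96 to 61.0 ± 4.36 normalized counts (log2 fold change 2.74, adjusted p = 2.5e-05), and Ctsz, a lysosomal carboxypeptidase whose end overlaps Nelfcd on the opposite strand, fell by 0.57 on the log2 scale (adjusted p = 0.0312). Among other serine protease inhibitors and transmembrane serine proteases 2 of 7 were higher, Serpinb1a, an inhibitor of neutrophil proteases (log2 fold change 1.93, adjusted p = 0.00497), and Serpinh1, a chaperone of collagen that has the serpin fold without inhibiting a protease (log2 fold change 0.65, adjusted p = 0.0126), and 0 were lower by any of the same 3 tools or at an unadjusted p below 0.05 in edgeR's test.

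Of the 20 pathway genes that the naming rule takes in, 13 kept their call in edgeR's quasi-likelihood test with any 1 library left out. Areg lost it without shLmna replicate 2 (adjusted p = 0.0629) and Serpinb1a without shControl replicate 2 (adjusted p = 0.0563). Serpinh1 lost it without shControl replicate 2 (0.0736) or shLmna replicate 1 (0.0702), and Thbs1 without shControl replicate 2 (0.0663), shLmna replicate 2 (0.0529) or shLmna replicate 3 (0.0628). Ctsz lost it without shControl replicate 1 (0.136) or 2 (0.0672) or shLmna replicate 2 (0.0904) or 3 (0.140). Plgrkt kept its call only without shControl replicate 3, at adjusted p of 0.0764 to 0.193 without each of the other 5 libraries, and Axl only without shLmna replicate 3, at 0.0756 to 0.179. With all 6 libraries, Axl was also not called by limma-voom (adjusted p = 0.0555), without the filter (0.0568), after thinning (0.0623) or with a mean count of at least 50 (0.0506), Plgrkt was not called by DESeq2 (0.0726), without the filter (0.0586) or after thinning (0.0827), and Thbs1 was not called with the replicate block and the GC correction together (0.0754).

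**Figure D4:**
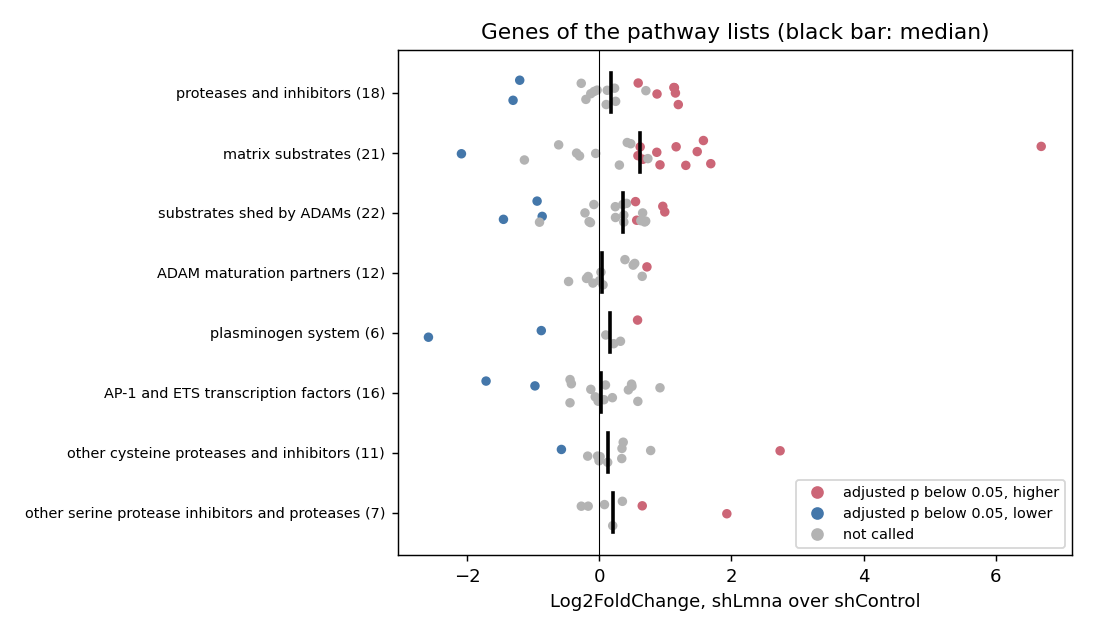
Log2FoldChange of shLmna over shControl for every tested gene of the protease and inhibitor list and of each pathway list, with the number tested in brackets; each point is 1 gene, red for higher, blue for lower and grey for not called, and the bar marks the list's median. The list of matrix substrates has 11 red points and 1 blue, and a median of 0.62. The point farthest to the right is Col3a1, whose plotted value depends on the prior count because no shControl library held a UMI of it.

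In bulk libraries fewer cells of a type and less RNA per cell cannot be told apart, so markers of other cell types were summed beside these results. Of 6 fibroblast markers 2 were in the table, at 14.2 to 17.9 summed CPM in shControl and 23.6 to 24.9 in shLmna. The markers Dcn, Lum, Thy1 and Fap were not in it. Pdgfra, 1 of the 2, had 12.8 ± 2.07 normalized counts in shControl and 13.3 ± 1.25 in shLmna. Its log2 fold change was 0.04 (adjusted p = 0.958, edgeR's quasi-likelihood test). Pdgfrb, the other, rose by a log2 fold change of 0.74 (adjusted p = 0.0457, edgeR's quasi-likelihood test) beside Mmp2, Mmp11, Timp2 and Col3a1, while Col7a1 fell. The part of Pdgfrb in these results was not tested. Its call was lost with any 1 library left out, at adjusted p of 0.0802 to 0.138, and also with the replicate block (0.0551), after thinning (0.0787) and by DESeq2 (0.133). The 4 of 5 mesenchymal markers in the table summed to 4764 to 5682 CPM in shControl and 5718 to 6696 in shLmna, nearly all of it from Vim. The 4 carcinoma markers summed to 262 to 308 and 293 to 328 CPM, nearly all of it from Krt8. Epcam, 1 of them, had 33.1, 35.7 and 32.95 normalized counts in shControl and 13.03, 29.2 and 10.6 in shLmna beside the fall of St14 (log2 fold change -0.90, adjusted p = 0.0909). Krt18 had a log2 fold change of -0.53 with overlapping groups (adjusted p = 0.453, edgeR's quasi-likelihood test). Krt7, under the filter, had 6, 4 and 8 UMIs in shControl and 7, 9 and 10 in shLmna. Macrophage markers, 2 of 5 in the table without Ptprc, Adgre1 and Aif1, summed to 8.96 to 14.6 and 8.12 to 10.7 CPM, and the 1 of 4 endothelial markers in the table to 0.617 to 3.16 and 0.739 to 2.17. Timp1 lies within the neuronal gene Syn1, which had 104 ± 26.1 normalized counts in shControl and 107 ± 6.91 in shLmna. The counted end of Syn1 overlaps Araf on the opposite strand, so reads of Syn1 and Araf may not have been told apart.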

How the data were processed

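RNA of E0771 cells carrying the shControl or the shLmna vector was read by MARS-seq in 3 libraries per group. For the deposited counts the authors used Cutadapt for trimming, STAR 2.4.2a for mapping to mm10 and a modified HTSeq-count for counting UMIs in the last 1000 bases of RefSeq genes and a short stretch downstream, and these counts are whole numbers without normalization, 1846208 to 3242051 per library. This window makes levels comparable between genes but ties them to the GC content and the annotation of the 3' end. The deposited ComBat-corrected log2 values and the deposited DESeq2 comparison (fold changes and p-values) were not used.

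The test was that of edgeR 4.0.16 under R 4.3.3: filterByExpr with a minimum count of 10, TMM factors, the quasi-likelihood test (two-sided) and Benjamini-Hochberg adjustment over 8969 genes. A call is an adjusted p below 0.05. The script was tested on simulated data. The alternatives were DESeq2 1.42.0, limma-voom (limma 3.58.1), RLE and upper-quartile scaling, no filter, a mean count of at least 50, thinning to 1846208 UMIs, a GC correction (loess, span 0.3), the replicate number as a block with and without it, and each library left out. Coordinates and GC content came from GENCODE M21 (GRCm38) and promoters from RefSeq (GRCm38.p6), with Python 3.11.15, pandas 2.3.3, numpy 2.4.6, scipy 1.17.1 and matplotlib 3.10.9. Counting intervals are exact binomial, at 95%, and cover counting error only.

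The genes and lists were chosen with earlier results of these data known. All listed genes in the table are accounted for. Called genes and the most abundant of each role are given per library, and up to 3 called genes per direction are named from each pathway list. Some results are not reported here.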

Additional observations from a re-analysis of the deposited data

How the results depend on the processing

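Called genes numbered 1232 over all tested genes, 1033 by DESeq2, 779 with a mean count of at least 50, 1504 after the GC correction and 540 (without shControl replicate 2) to 1580 (without shControl replicate 3) with 1 library left out, with 794 without shControl replicate 1, 757 without shLmna replicate 2 and 651 without shLmna replicate 3. Of the protease and inhibitor genes, 3 to 5 were higher with 1 library left out against 6 with all, 3 without shLmna replicate 3, and 1 to 2 were lower. With a mean count of at least 50, 1 was lower. The differentially expressed genes numbered 4 to 6 over the 16 alternatives, and the median log2 fold change lay between 0.09 and 0.22. The pathway genes called numbered 29, and 19 (without shControl replicate 2) to 31 with 1 library left out. Timp2, Htra1, Mmp2 and St14 kept their call in every alternative in which they were tested, and Mmp11, Adamts1 and Capn1 in all that used the 6 libraries and tested them, while Adam9 lost it after the GC correction, also with the block (log2 fold change 0.26, adjusted p = 0.280). The sign of Capn2 turned with 1 library left out, over a range of -0.20 to 0.10, and that of Htra2 over -0.23 to 0.034 (0.034 without shLmna replicate 2), neither called, and the cause was not tested. The deviations of libraries with the same number had correlations of 0.35 for replicate 1, -0.11 for replicate 2 and 0.0052 for replicate 3. These values do not decide whether the numbers mark pairs. With the replicate block 6 genes were higher, 2 lower and 6 differentially expressed, 31 pathway genes were called, and Lmna stood at -1.19, beside -1.26 to -1.15 with 1 library left out. Depth limits the 8 untested genes, which had 25 to 48 UMIs over the 6 libraries.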

Other observations

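Of 62 further genes of the same families that the list did not hold, 11 were in the table and 8 were tested. Htra3, a secreted relative of Htra1 expressed in stromal tissue, rose from 11.02 ± 2.18 to 30.8 ± 4.02 normalized counts (SD, n = 3), a log2 fold change of 1.49 with a standard error of 0.31 (adjusted p = 0.00602, edgeR's quasi-likelihood test). The call was lost without shControl replicate 2 (adjusted p = 0.0548). The other 7 were not called. Prtn3, a neutrophil serine protease, had 27.3 ± 2.98 normalized counts in shControl and 14.8 ± 1.77 in shLmna without overlap (adjusted p = 0.0616, edgeR's quasi-likelihood test). It passed after the GC correction (log2 fold change -0.93, adjusted p = 0.0376) and not with the replicate block added to that correction (adjusted p = 0.0557). Adam33 had 53.1 ± 11.2 and 74.3 ± 17.6 normalized counts (adjusted p = 0.197), and Adamts14, which cuts procollagen, 57.8 ± 14.8 and 70.8 ± 6.28 (adjusted p = 0.474), both with overlapping groups.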
